A study of Mus musculus with 4 samples.

Results

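The interferon-γ induced GTPases were followed across the cell classes of the mouse carotid artery before and after wire injury. The group was chosen by gene name and held 10 of the 31053 genes listed in the matrices, of which 20506 had at least 1 unique molecular identifier (UMI). Its members were the guanylate-binding proteins Gbp2 (ENSMUSG00000028270), Gbp3 (ENSMUSG00000028268), Gbp4 (ENSMUSG00000079363), Gbp5 (ENSMUSG00000105504) and Gbp7 (ENSMUSG00000040253), the immunity-related GTPases Igtp (ENSMUSG00000078853), Irgm1 (ENSMUSG00000046879), Iigp1 (ENSMUSG00000054072) and Ifi47 (ENSMUSG00000078920), and Irf1 (ENSMUSG00000018899). Irf1 is no GTPase but a transcription factor that is itself induced by interferon-γ and acts on many of the same targets, so 9 of the 10 members were GTPases. All 10 had UMIs in the cells kept.

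Interferon-γ is a cytokine made mainly by activated T cells and natural killer (NK) cells. It binds a receptor of Ifngr1 and Ifngr2 chains, which signals through the kinases Jak1 and Jak2. Its target genes are reached through gamma-activated sites (GAS), and interferon regulatory factors and type I interferon signalling act through interferon-stimulated response elements (ISRE). Guanylate-binding proteins and immunity-related GTPases gather on vacuoles that hold intracellular pathogens and help to disrupt them, and Gbp2 and Gbp5 also promote inflammasome activation, while Irgm1 acts as a regulator that keeps other members of its family in check. Type I interferon can induce several of these genes too.

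The study used male C57BL/6 mice that were injured at 11 weeks of age, and the labels name no transgene or drug. A wire drawn through the carotid artery strips the endothelium, and vessels were collected before injury (day 0) and 3, 7 and 14 days after it. Several carotids, 1 from each mouse, were pooled per time point, thrombosed vessels were discarded, and the digested cells passed through dead cell removal before droplet 3′ sequencing. Each time point was thus 1 library without replicates, so a difference between days cannot be told apart from a difference between libraries, no test was possible, and every interval (95%, exact Poisson for levels and ratios, exact binomial for shares) covers counting error only.

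The 4 libraries held 6161 barcodes with 2672722 to 27973418 UMIs in total, and 5621 cells (329, 1508, 2693 and 1091 on days 0, 3, 7 and 14) with median UMI counts of 4818 to 9481 were kept. They formed 37 clusters, of which the named ones fell into 9 classes that resemble known types ("-like"), and 629 cells (11.2%) stayed unnamed. The libraries shared cell barcodes. There were 152 between days 0 and 3, 64 between days 7 and 14 and 1 between days 3 and 7, and in 150 and 61 of the first sets both copies passed the filters. Where the day 3 copy was the shallower (102 pairs), it held a median of 762 UMIs against 17059 in its day 0 partner, and in all 96 pairs with both copies named the class was the same. The 48 copies that were shallower at day 0 and the 59 that were shallower at day 14 had 109-fold and 89.5-fold fewer UMIs than their partners at the median. Leaving out the shallower copy of every pair left 5409 cells. Of the day 3 fibroblast-like cells 91 of 219 were such copies, but they held 1.5% of the UMIs of that class and day, and no count of members past 2-fold and no Ifng level given below changed beyond the limits set for it. In the endothelial-like class at day 14, 6 of 24 cells were copies and held 10.8% of the UMIs.

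The promoters of 8 members were listed in RefSeq (GRCm38.p6), with no entry for Gbp4 and Iigp1, and Gbp3 and Irf1 had 2 entries each. The 250 bases before each start were searched on both strands for a GAS (TTCNNNGAA) and an ISRE (GAAA, any 2 bases, then GAAA). A GAS was found for 4 of the 8 genes, an ISRE for 6, and either for 7. Among all 32851 promoters of that length, 7.02% held the GAS letters, 2.98% the ISRE letters and 9.66% either. The windows below are shown because each of these members passed the limit used below for a change between days in at least 1 class and holds a match close to its start. They hold the matches (in capitals) with 20 bases on either side, or up to the start of the gene where that is nearer (Irgm1), 5′ to 3′ on the strand of the gene. They lie at chr3:142620584-142620633 (+) for Gbp2, chr3:142559979-142560034 (+) for Gbp3, chr3:142530210-142530312 (+) for Gbp7, chr11:58199491-58199551 (+) for Igtp, chr11:48871421-48871470 (−) for Irgm1 and chr11:53769904-53769952 (+) for Irf1.
Gbp2: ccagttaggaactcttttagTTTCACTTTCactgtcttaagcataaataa
Gbp3: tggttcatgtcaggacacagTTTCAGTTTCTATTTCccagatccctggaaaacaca
Gbp7: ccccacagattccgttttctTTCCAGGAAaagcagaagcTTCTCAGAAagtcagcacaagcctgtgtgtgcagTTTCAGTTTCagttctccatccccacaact
Igtp: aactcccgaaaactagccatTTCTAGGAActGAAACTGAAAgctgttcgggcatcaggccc
Irgm1: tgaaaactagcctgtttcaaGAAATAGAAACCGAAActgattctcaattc
Irf1: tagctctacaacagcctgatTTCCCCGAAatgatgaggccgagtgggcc
Gbp2, Gbp3 and Irgm1 had ISRE matches only, which in Gbp3 and Irgm1 were 2 overlapping copies. The Gbp2 match began 59 bases before the start. Gbp7 had 2 GAS matches (106 and 87 bases before the start) and an ISRE (53 bases before it), Igtp had both kinds within 45 bases of its start, and Irf1 had a single GAS (90 bases before the start of its first entry). Gbp5 held 2 GAS matches, of which 1 began 52 bases before the start, and 1 ISRE. It passed the limit in endothelial-like cells as well, but its window is not shown. Ifi47 held neither kind of match. A match is a description of the letters and not evidence of binding.

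Ifng itself, the gene of the inducing cytokine, was read almost entirely from lymphoid classes. Its level in the whole library was 0.755 CPM (UMIs of the gene per 1000000 UMIs of the cells summed) at day 0 (2 UMIs), 14.0 at day 3 (255 UMIs), 27.1 at day 7 (717 UMIs) and 10.9 at day 14 (142 UMIs). The library level at day 7 was 1.94 times that at day 3 (interval 1.68 to 2.24), and the level at day 14 was 0.401 times that at day 7 (0.332 to 0.480). As a mean over cells the levels were 28.9, 45.8 and 34.9 CPM on days 3, 7 and 14, so that day 7 was still highest but day 14 lay above day 3 instead of below it. T cell-like cells held 54.1%, 65.0% and 71.8% of the Ifng UMIs of days 3, 7 and 14, while 43.9%, 25.9% and 25.4% lay in the NK cell-like class. Unnamed cells held 7.67% of them at day 7.

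Within the producing classes the order of the days was different from that of the library. In T cell-like cells the Ifng level was 14.0 CPM at day 0 (2 UMIs in 18 cells), and 362, 192 and 168 CPM on days 3, 7 and 14, with intervals of 304 to 427, 175 to 210.0 and 137 to 203 (67, 389 and 109 cells). In NK cell-like cells it was 415, 233 and 437 CPM on these days, with intervals of 342 to 499, 201 to 269 and 306 to 604 (56, 135 and 22 cells). The day 7 level was 0.530 times the day 3 level in T cell-like cells (0.438 to 0.646) and 0.561 times in NK cell-like cells (0.442 to 0.716), so Ifng per UMI was lower in both classes on the day on which the library as a whole held most of it. The 2 classes had 67 and 56 of the 1508 cells kept at day 3, against 389 and 135 of 2693 at day 7. The NK marker list moved with Ifng, at 2271, 732 and 746 CPM in T cell-like cells and 17228, 10342 and 15729 in NK cell-like cells on days 3, 7 and 14. Cluster 9, led by the cytotoxic cell genes Ccl5 and Nkg7, held 42 of 67 T cell-like cells at day 3 and 178 of 389 at day 7, and within it Ifng stood at 538 and 286 CPM. The part of this make-up in the class values was not tested.

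The Ifng signal differed among T cell-like cells. At day 3, cells with Cd8a or Cd8b1 UMIs only held Ifng at 591 CPM (493 to 703; 34 cells), cells with Cd4 only at 94.8 (34.8 to 206; 13 cells) and cells with Trdc or Tcrg-C1 only, the γδ T cell genes, at 19.2 (0.487 to 107; 10 cells). At day 7 the same groups stood at 327 (276 to 384), 148 (117 to 184) and 169.7 CPM (134 to 212), and at day 14 at 139 (82.4 to 219.8), 201 (119 to 317) and 77.4 (42.3 to 129.9). Cells with none of these genes held 78.1 (21.3 to 200.1), 171 (143 to 204) and 263 CPM (196 to 344) on days 3, 7 and 14 (10, 131 and 42 cells). The Cd8 group was above the others on days 3 and 7 without overlap of the intervals, and at day 14 the cells with none of the genes were highest, overlapping the Cd4 and Cd8 groups. The summed member level did not follow the same order at day 3, where it was 530.3, 489.7 and 519.6 CPM in the Cd8, Cd4 and γδ groups. At day 7 it was 589.8, 861 and 563 CPM.

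**Figure D1:**
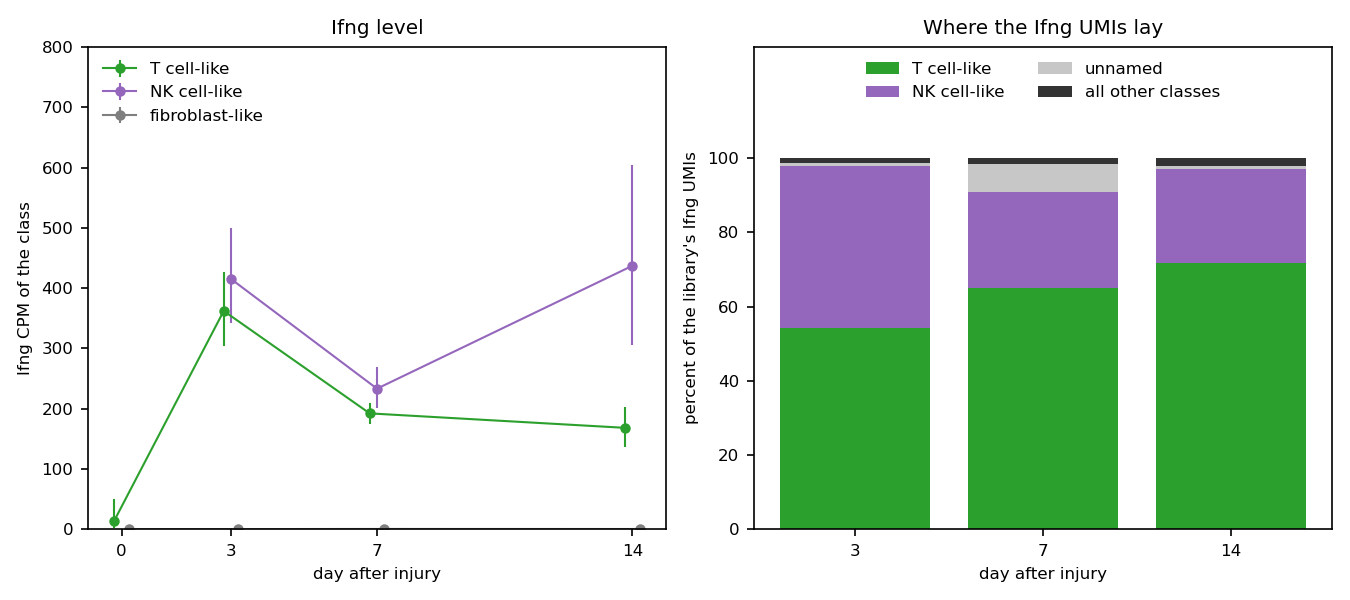
Ifng by day after injury. Left, CPM of summed cells in T cell-like, NK cell-like and fibroblast-like cells with 95% exact Poisson intervals, and right, the percent of each library's Ifng UMIs that lay in each class (day 0, with 2 UMIs, is not drawn). T cell-like cells stand at 362 CPM at day 3 and 192 at day 7, and T and NK cell-like cells together hold over 90% of the UMIs on each day.

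The share of cells with at least 1 Ifng UMI was 35.8% (24.5 to 48.5), 29.3% (24.8 to 34.1) and 28.4% (20.2 to 37.9) of T cell-like cells on days 3, 7 and 14, and 50%, 42.2% and 50% of NK cell-like cells. After thinning every cell to 1000 UMIs these were 16.2%, 11.0% and 11.8% in T cell-like and 22.3%, 16.8% and 24.5% in NK cell-like cells. In fibroblast-like cells, which should lack the transcript, 0 of 219, 1 of 192 (0.521%) and 1 of 521 cells (0.192%) held one on the same days without thinning, at median depths of 1787, 21616 and 18050 UMIs against 5402, 5600 and 5018 in T cell-like cells.

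Over all cells the 10 members summed to 159, 302, 513 and 238 CPM on days 0, 3, 7 and 14, with intervals of 144 to 175, 294 to 310.4, 505 to 522 and 229.5 to 246. At day 3, neutrophil-like (691 CPM, 630.0 to 757), endothelial-like (527, 432 to 638), NK cell-like (504, 423 to 596) and T cell-like cells (501, 432 to 577) led the order, and each overlapped its neighbour. Fibroblast-like (379.7), monocyte/macrophage-like (319), dendritic-like (287) and smooth muscle-like cells (98.1) followed. At day 7 the endothelial-like class stood alone at 1718 CPM (1625 to 1814), above neutrophil-like (761, 674 to 855), NK cell-like (732, 674 to 794), T cell-like (678), dendritic-like (582), monocyte/macrophage-like (521), fibroblast-like (310.1) and smooth muscle-like cells (187). Of these neighbours, neutrophil-like and NK cell-like and then NK cell-like and T cell-like cells overlapped. At day 14 it was endothelial-like cells (969, 724 to 1271; 24 cells), NK cell-like (509), T cell-like (406), monocyte/macrophage-like (282), dendritic-like (258) and fibroblast-like cells (233), with NK and T cell-like cells overlapping and the 3 last in this row overlapping as neighbours. B cell-like cells (10, 13 and 21 cells) held 167, 209.9 and 99.2 CPM. Irf1, the member that is no GTPase, gave 250 of the 466 member UMIs of neutrophil-like cells at day 3 and 127 of 282 at day 7. At day 3 it gave 10 of 106 in endothelial-like, 38 of 136 in NK cell-like and 45 of 191 in T cell-like cells. In monocyte/macrophage-like cells at day 14 it gave 208 of 419. The order of the sums is therefore not that of the GTPases alone.

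**Figure D2:**
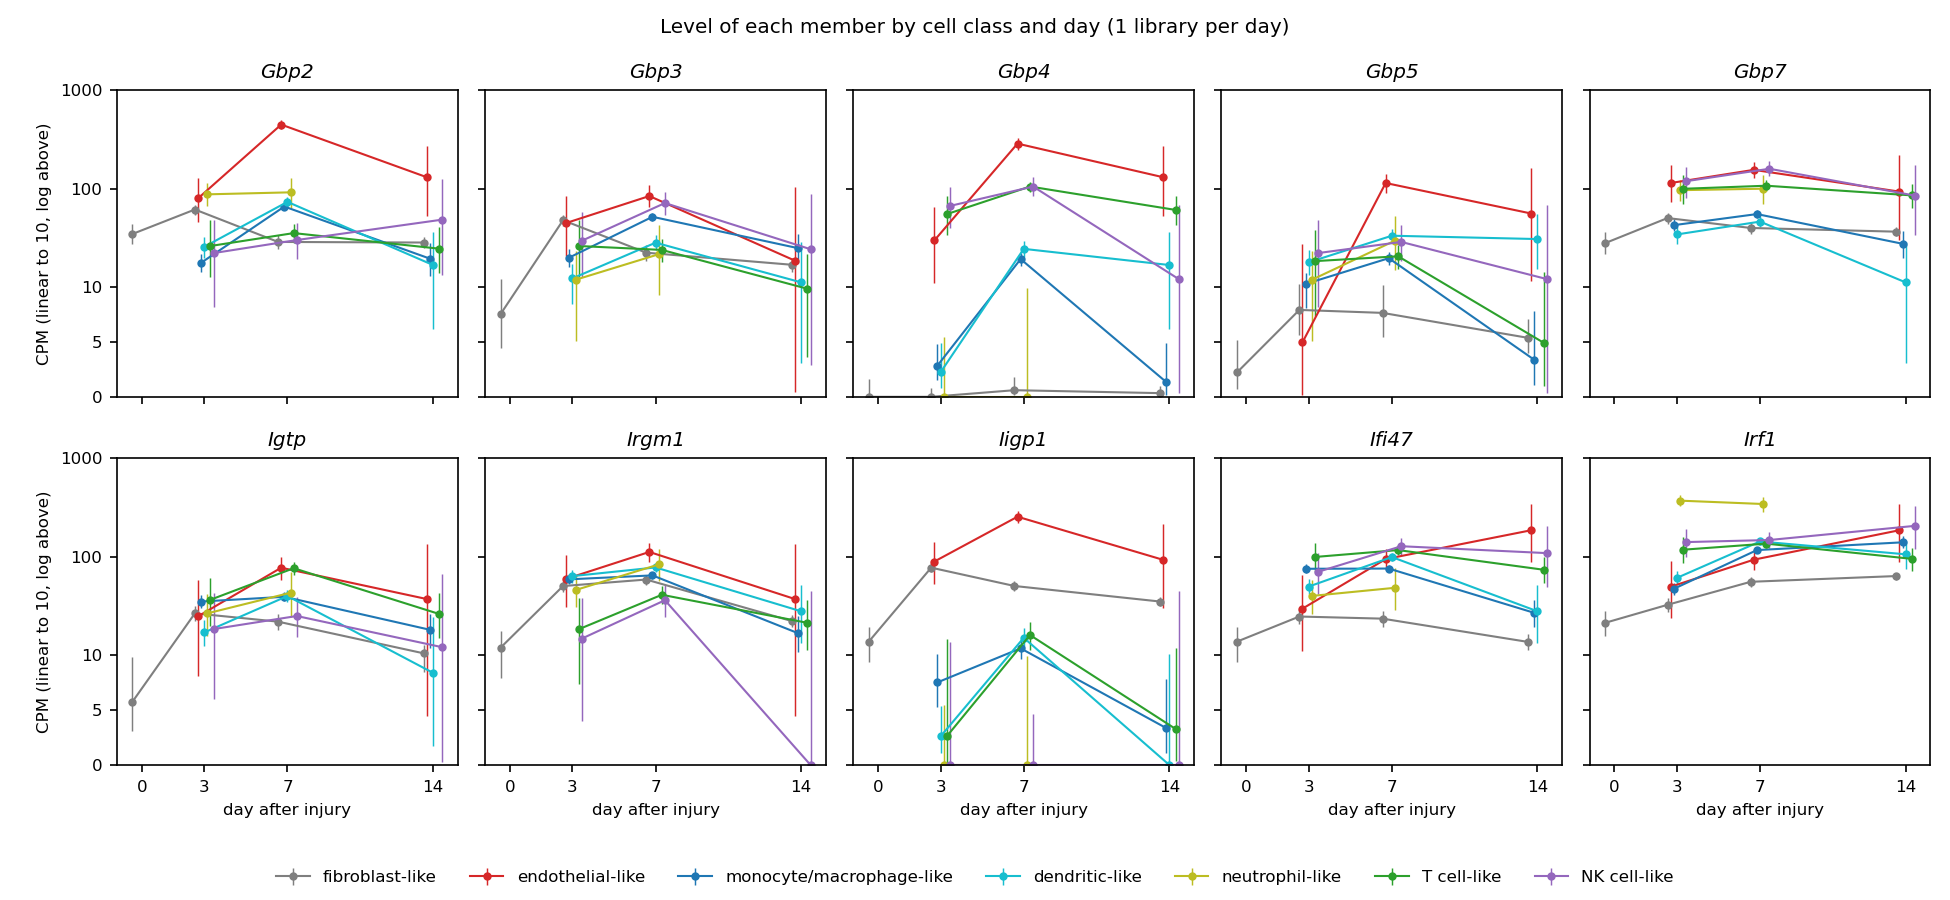
Level of each of the 10 members (CPM, linear to 10 and logarithmic above) by day after injury in 7 cell classes (points of at least 20 cells), with 95% exact Poisson intervals and 1 library per day. The endothelial-like class is highest at day 7 for Gbp2, Gbp4, Gbp5 and Iigp1, the neutrophil-like class is highest for Irf1 on days 3 and 7, and Gbp4 stays at or near 0 in fibroblast-like cells.

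Single members marked classes. Gbp4, which helps guanylate-binding proteins to reach pathogen vacuoles, was read in lymphoid and endothelial-like cells and hardly in stromal ones. It stood at 105, 55.1, 105 and 60.8 CPM in T cell-like cells on days 0, 3, 7 and 14, whereas fibroblast-like cells held no Gbp4 UMI on days 0 and 3 (for a count of 0 the limit given is the level of 3 UMIs, here 1.33 and 0.626 CPM) and 3 UMIs each on days 7 and 14 (0.604 and 0.336 CPM). Neutrophil-like cells held no UMI of Gbp4 or Iigp1 on either day, which allows up to 4.45 CPM at day 3 and 8.09 at day 7. NK cell-like cells held no Iigp1 UMI on any day (up to 11.1, 3.76 and 36.4 CPM allowed on days 3, 7 and 14), while endothelial-like cells held Iigp1 at 89.5, 255 and 93.2 CPM and fibroblast-like cells at 77.6, 50.6 and 35.2 CPM. For Iigp1 the fibroblast-like and endothelial-like classes were thus above T cell-like, dendritic-like, monocyte/macrophage-like and smooth muscle-like cells at day 3, which stood at 2.62, 2.61, 7.54 and 5.83 CPM, without overlap of the intervals. For Irf1 the order at day 3 was another one, with neutrophil-like cells at 371 CPM (326 to 419.8), NK and T cell-like cells at 141 and 118, endothelial-like cells at 49.7 and fibroblast-like cells at 32.6.

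To compare days within a class, each gene with at least 20 UMIs over both days was given its difference in log2(CPM + 10), and a member was called changed when that difference was 1 or more either way (2-fold on this scale, which understates the change of low genes). The share of all genes past the same limit stands beside the counts of members. A gene that is low on 1 day can reach the 20 UMIs through the other day alone, and its call is then fixed by that choice. Such members are named, since counts that hold them say nothing more than the values.

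Monocyte/macrophage-like cells had 4 of 10 members higher at day 7 than at day 3 and none lower, where 1.20% of 11121 genes were as much higher and 0.80% as much lower. Gbp2 stood at 17.7, 65.8 and 19.5 CPM on days 3, 7 and 14 (519, 918 and 193 cells; intervals 14.2 to 21.9, 60.6 to 71.4 and 13.1 to 28.1), a day 7 to day 3 ratio of 3.71 (2.96 to 4.70). Gbp3 stood at 20.0, 51.8 and 24.9 CPM (ratio 2.60, 2.08 to 3.26) and Gbp4 at 2.85, 19.3 and 1.35 CPM (6.75, 3.92 to 12.6). These 3 guanylate-binding genes were high at day 7 only, with no overlap of the intervals of day 7 with those of the other days. Irf1 stood at 47.3, 117 and 140.2 CPM, so that its rise at day 7 (ratio 2.48, 2.15 to 2.87) was still there at day 14 (2.97 times day 3, 2.45 to 3.59). The immunity-related GTPases did not pass the limit, with Ifi47 at 75.6 and 76.0 CPM, Irgm1 at 59.1 and 64.8, Igtp at 35.2 and 39.3 and Iigp1 at 7.54 and 11.8 on days 3 and 7. Gbp5 (10.8 and 19.7 CPM, log2 difference 0.51) and Gbp7 (42.6 and 55.2 CPM, 0.31) stayed under it as well. The median difference of the members was 0.42 and that of all genes −0.06. Median depth was 7540 and 8742 UMIs on days 3 and 7. The T cell marker list summed to 2.45 CPM in this class at day 3 (5 of 11 seen) and 18.3 at day 7 (11 of 11), with Cd3e at 0 and 0.901 CPM. The fibroblast list stood at 479 and 994 CPM, the neutrophil list at 106 and 233 and the NK list at 9.37 and 22.5, and the part of these markers in the result was not tested.

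By day 14, 2 of the 4 immunity-related GTPases of the monocyte/macrophage-like class were lower than at day 3. Against that day, Irgm1 fell to 16.8 CPM (ratio 0.285, 0.181 to 0.430) and Ifi47 to 27 CPM (0.357, 0.251 to 0.495), Irf1 was higher, and the other 6 members compared did not pass the limit, among them Igtp at 18.2 CPM (log2 difference −0.68) and, both low, Gbp5 and Iigp1 at 3.37 CPM each against 10.8 and 7.54 at day 3. This was 1 member higher and 2 lower of 9, where 2.35% of 9994 genes were as much higher and 2.50% as much lower. When each cell was given equal weight, Irf1 and Irgm1 no longer passed the limit.

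The monocyte/macrophage-like class changed its make-up between the days, and the members differed between its clusters. Cluster 5, led by Lyz2, Pf4 and C1q genes with Spp1, held 333 of the 519 cells at day 3 and 78 at day 7. Cluster 0, led by Lyz2, Il1b and Cd74, held 65 and 400 cells, and cluster 2, led by C1q genes and Ms4a7, held 43, 258 and 132 cells on days 3, 7 and 14. Within cluster 0 the members summed to 234 CPM at day 3 and 723 at day 7 (ratio 3.1, 2.60 to 3.71), and 10 of 10 were called higher (1.36% of 8855 genes higher and 0.621% lower), of which Iigp1 (0 and 47 UMIs) was tested through day 7 alone. Within cluster 5 the sum went from 331 to 701 CPM (2.12, 1.93 to 2.33), with 6 of 10 higher (1.31% and 1.32% of 9269 genes), of which Gbp4 (7 and 27 UMIs) was tested through day 7 alone. Within cluster 2 the sum was instead 408 and 280.0 CPM (0.686, 0.587 to 0.805), with none of 8 higher and 1 lower (2.27% and 2.07% of 8992 genes). Of these 8, Gbp5 (5 and 15 UMIs) was tested through day 7 alone. A shallow cluster 8 had 2 of 6 members higher and none lower (7.89% and 3.46% of 5550 genes), both tested through day 7 alone (Gbp2 with 3 and 36 UMIs and Gbp5 with 2 and 19), with sums of 292 and 533 CPM (1.83, 1.38 to 2.45).

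Gbp2 followed the summed level in these clusters, whereas the chemokine Cxcl9 was high in cluster 0 at day 7 and near 0 in clusters 2 and 5. Gbp2 stood at 20.9 and 116 CPM in cluster 0, 17.3 and 68.9 in cluster 5 and 25.6 and 17.8 in cluster 2 on days 3 and 7. Cxcl9, a chemokine that attracts activated T cells and depends closely on interferon-γ, stood at 1.74 and 279 CPM in cluster 0 but at 0 and 4.85 in cluster 5 and 0 and 4.02 in cluster 2. In cluster 2, Ifi47 was 111, 41.1 and 23.4 CPM on days 3, 7 and 14, Irgm1 was 74.8, 50.8 and 17.4, and Irf1 went the opposite way, from 44.9 over 84.2 to 159 CPM.

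**Figure D3:**
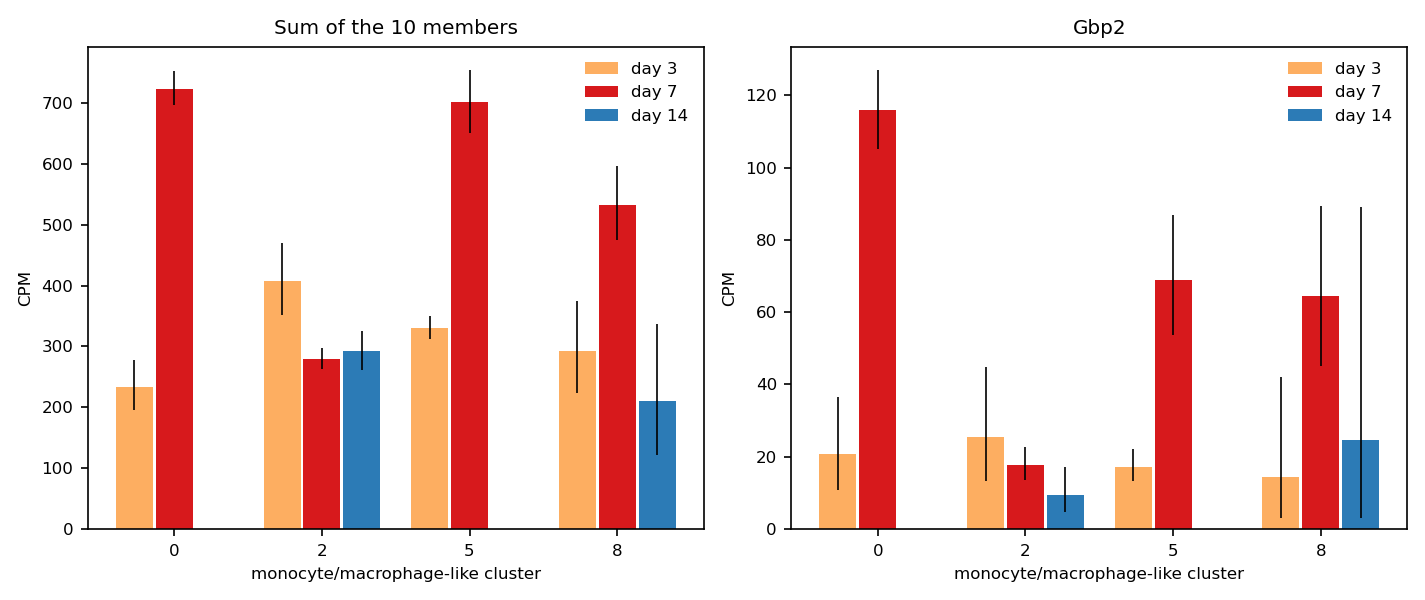
Sum of the 10 members (left) and Gbp2 (right) in CPM in the 4 monocyte/macrophage-like clusters on days 3, 7 and 14, with 95% exact Poisson intervals (bars are left out below 20 cells). Between days 3 and 7 the sum went from 234 to 723 CPM in cluster 0 and from 331 to 701 in cluster 5, and from 408 down to 280.0 in cluster 2.

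Dendritic-like cells were like the monocyte/macrophage-like class in the direction of their members. At day 7, 3 of 10 were higher than at day 3 and none lower, where 0.997% of 10027 genes were as much higher and 0.718% as much lower, and the median difference was 0.88 against −0.01 for all genes. Gbp2 stood at 25.7 CPM at day 3 (161 cells), 73.4 at day 7 (362 cells) and 16.8 at day 14 (40 cells), with a day 7 to day 3 ratio of 2.85 (2.20 to 3.75). Gbp4 stood at 2.24, 24.5 and 16.8 CPM (ratio 11.0, 4.89 to 30.5) and Irf1 at 61.1, 143 and 106 CPM (2.34, 1.97 to 2.80). Gbp4, with 6 and 117 UMIs, was tested through day 7 alone. The immunity-related GTPases Igtp (17.1 and 40 CPM), Ifi47 (49.9 and 99.4) and Iigp1 (2.61 and 15.1) were just under the limit, with differences of 0.88, 0.87 and 0.99, and Irgm1 stood at 63.7 and 78.0 CPM. Calls of the dendritic-like class also moved with changes of the processing. Under several of them 5 to 6 members passed, but the share of all genes past the limit there is not given. At day 14, none of 8 members was above day 3 by the limit and 1 was below it, Gbp7 at 34.3 and 11.2 CPM (ratio 0.327, 0.0873 to 0.866), where 3.13% of 8498 genes were higher and 4.30% lower. The Gbp7 call rested on 4 UMIs at day 14 and was lost with interferon genes among the variable genes. Several marker lists of other types moved in this class between days 3 and 7, the T cell list from 3.73 to 23.9 CPM (6 and 11 of 11 seen), the plasmacytoid dendritic list from 111 to 423 (3 and 7 of 7), the neutrophil list from 106 to 268 and the fibroblast list from 446 to 790.4. Their part was not tested.

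The dendritic-like clusters had Gbp2 higher at day 7 alike and differed in the values of the immunity-related GTPases. In cluster 1, led by Ifitm1, class II genes and Cd209a, Gbp2 was 18.5 and 62.0 CPM, Ifi47 45.9 and 113, Igtp 15.8 and 43.9, Irgm1 64.4 and 87.7 and Cxcl9 0 and 238 on days 3 and 7 (129 and 299 cells). In cluster 18, led by the migration genes Ccr7 and Fscn1, Gbp2 was 61.0 and 174 CPM and Irf1 189 and 266, but Ifi47 was 12.2 and 7.48, Igtp 24.4 and 5.61, Irgm1 27.4 and 1.87, and Iigp1 had no UMI on either day (25 and 60 cells).

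The endothelial-like class showed the widest differences, on few cells. Of 10 members, 6 were higher at day 7 than at day 3 and none lower, beside a high background of 11.1% of 6394 genes higher and 5.68% lower, and Gbp5 (1 and 85 UMIs) was tested through day 7 alone. Gbp2 stood at 79.6, 446 and 130.5 CPM on days 3, 7 and 14 (40, 55 and 24 cells; intervals 45.5 to 129, 399.6 to 497 and 52.5 to 269), so that day 7 was 5.60 times day 3 (3.40 to 9.92). Gbp4 stood at 29.8, 286 and 130.5 CPM (ratio 9.58, 4.33 to 26.4). Gbp5, an inflammasome promoter, went from a single UMI at day 3 (4.97 CPM) to 114 CPM at day 7 and 55.9 at day 14 (22.8, 3.99 to 912). Iigp1 stood at 89.5, 255 and 93.2 CPM (2.85, 1.75 to 4.91), Igtp at 24.9, 77.5 and 37.3 (3.11, 1.26 to 9.95) and Ifi47 at 29.8, 94.8 and 186 (3.18, 1.39 to 8.95). For all 6 the day 7 interval lay above that of day 3, and Gbp3 (44.8 and 84.1 CPM), Gbp7 (114 and 155), Irgm1 (59.7 and 112) and Irf1 (49.7 and 93.5) did not pass the limit.

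Few cells set the endothelial-like levels. The 5 deepest cells held 78.0%, 59.8% and 69.5% of the UMIs of the class on days 3, 7 and 14, where the medians were 1112, 1706 and 909.5 UMIs. Without them the day 7 minus day 3 differences were 2.49 for Gbp2, 4.50 for Gbp4, 3.66 for Gbp5, 2.93 for Igtp, 1.57 for Iigp1 and 1.70 for Ifi47, all still past the limit. The endothelial markers Pecam1 (1472, 1364 and 1267 CPM) and Cdh5 (468, 628 and 689.6) were present on each day. Monocyte/macrophage markers summed to 184 CPM at day 3 (11 of 16 seen) and 187 at day 7 (15 of 16), but to 5629 at day 14 (12 of 16), with Lyz2 at 69.6, 61.4 and 1211 CPM. Between days 3 and 7 other lists moved with the members, fibroblast markers from 861 to 1887 CPM, dendritic markers from 44.8 to 162 and the single plasmacytoid dendritic marker seen from 189 to 699.9, while the T cell list stood at 0 and 12.0. The part of these markers in the values of days 7 and 14 was not tested. Day 14 could be compared for 4 members only and was not counted.

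Fibroblast-like cells were the class with most cells at day 0 (261), and the sum of their members was highest at day 3. Smooth muscle-like cells (23 at day 0, median 952 UMIs) were not compared with that day. The summed level was 139, 379.7, 310.1 and 233 CPM on days 0, 3, 7 and 14 (261, 219, 192 and 521 cells), with intervals of 124 to 156, 362 to 398, 295 to 326 and 223 to 243. Against day 0, 4 of 9 members were higher at day 3 and none lower (3.59% of 10933 genes higher and 3.91% lower), 4 of 9 at day 7 and none lower (3.79% and 3.25% of 11071) and 1 of 9 at day 14 and none lower (2.38% and 1.56% of 11645). Fewer were higher at day 7 with each library clustered on its own, and more at day 14 with cells weighted equally, where the share of all genes is not given. Iigp1 stood at 13.8, 77.6, 50.6 and 35.2 CPM on days 0, 3, 7 and 14, which was 5.63 times day 0 at day 3 (3.90 to 8.40) and 3.67 times at day 7. Gbp3 stood at 7.56, 47.8, 22.4 and 16.9 CPM (6.32 times at day 3, 3.86 to 11.0). Irgm1 stood at 12.0, 50.5, 58.8 and 22.3 CPM (4.20 times, 2.82 to 6.51) and Igtp at 5.78, 26.7, 22.0 and 10.5 (4.62 times, 2.61 to 8.91). The 4 genes were lowest at day 0 and on the way back at day 14. Irf1 had a course of its own, at 21.4, 32.6, 55.8 and 63.8 CPM, past the limit at day 7 (2.61 times day 0, 1.92 to 3.63) and day 14 (2.99, 2.22 to 4.10) but not at day 3. Gbp2 (34.7, 61.4, 28.8 and 28.4 CPM), Gbp7 (28.0, 50.3, 39.9 and 36.6), Ifi47 (13.8, 24.8, 23.6 and 13.7) and Gbp5 (2.22, 7.93, 7.66 and 5.38) did not pass the limit, although the Gbp5 intervals of days 0 and 3 (0.722 to 5.19 and 5.61 to 10.9) did not overlap.

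Set against day 3, fibroblast-like cells at day 7 had no member past the limit in either direction (1.74% of 11443 genes higher and 0.979% lower), with 7 of 9 below day 3. With cells weighted equally some members passed it as higher, and with a pseudocount of 1 CPM some passed it as lower. The share of all genes under these settings is not given. At day 14, none was higher and 1 lower (3.03% and 2.19% of 11982), which was Gbp3 at 16.9 CPM (0.354 times day 3, 0.287 to 0.437), and Iigp1, Irgm1, Gbp2 and Igtp lay at differences of −0.95, −0.90, −0.90 and −0.84. The Gbp3 call was lost with each library clustered on its own (−0.96) and with cells weighted equally (−0.52). Different fibroblast-like clusters held the class on each day. Cluster 14 held 146 of 261 cells at day 0, the shallow cluster 10 held 109 of 219 at day 3, and cluster 3 held 102 of 192 at day 7 and 292 of 521 at day 14. The levels are sums of UMIs, and cluster 10 gave only 6 of the 294 Gbp2 UMIs of the class at day 3. Within cluster 3 (37, 102 and 292 cells on days 3, 7 and 14) Iigp1 stood at 126, 26.5 and 31.7 CPM, Gbp3 at 76.8, 12.6 and 14.3 and Irf1 at 47.8, 69.8 and 65.8. Cluster 19, led by Saa3, kept Iigp1 at 70.0 and 94.7 CPM on days 3 and 7 (43 and 31 cells). Monocyte/macrophage markers summed to 124 CPM in fibroblast-like cells at day 0 (7 of 16 seen) and 427, 312 and 314 later (14 to 15 of 16), with Lyz2 at 0.890, 24.4, 44.5 and 14.5 CPM. On days 0, 3, 7 and 14 the dendritic list stood at 10.2, 83.5, 93.3 and 43.7 CPM and the neutrophil list at 1.33, 17.1, 12.9 and 5.38. The endothelial list went the other way, at 238, 29.2, 21.2 and 28.3 CPM. The part of these markers was not tested. With each cell weighted equally, Gbp3 at day 3 was no longer past the limit against day 0 (log2 difference 0.76).

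Smooth muscle-like cells had the lowest summed level of the vessel wall classes and a small day 7 increase. Of 6 members compared, 3 were higher at day 7 than at day 3 and none lower (1.46% of 10208 genes higher and 0.627% lower). Gbp2 stood at 10.2, 34.6 and 17.1 CPM on days 3, 7 and 14 (106, 73 and 80 cells), with a day 7 to day 3 ratio of 3.38 (2.11 to 5.54). Iigp1 stood at 5.83, 25.1 and 9.32 CPM (4.31, 2.36 to 8.24) and Irf1 at 16.0, 54.0 and 25.6 (3.37, 2.32 to 4.96). All 3 were higher at day 7 than on days 3 and 14 without overlap of the intervals. With cells weighted equally, Gbp2 (0.98) and Iigp1 (0.92) no longer passed, Irgm1 was lower (−1.10) and Irf1 stayed past the limit (1.65). Without doublet removal 5 members were higher, but the share of all genes past the limit there is not given. Irf1 stood at 16.5 and 26.9 CPM in cluster 13, which held 69 of 106 and 54 of 73 of these cells. At day 14, Irgm1 fell from 34.6 to 8.55 CPM (0.247, 0.119 to 0.462) and Ifi47 from 23.3 to 3.11 CPM (0.133, 0.0352 to 0.358) against day 3, so that 2 of 6 were lower and none higher (3.26% and 1.97% of 9970 genes). Ifi47, with 64 and 4 UMIs, was tested through day 3 alone and lost its call with cells weighted equally (−0.93) and Irgm1 without the 5 deepest cells of each day. The smooth muscle marker list itself summed to 24686, 17460.2 and 44613 CPM in this class on days 3, 7 and 14. The fibroblast list summed to 8756, 19798 and 9766 CPM (11 of 11 seen on each day), so that at day 7 it stood above the list that names the class. The T cell list summed to 2.19 CPM at day 3 and 19.5 at day 7. Monocyte/macrophage markers summed to 54.7, 112 and 31.9 CPM on days 3, 7 and 14. Their part was not tested.

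The remaining immune classes had few members past the limit. In neutrophil-like cells none of 6 members passed the limit between days 3 and 7 in either direction (3.79% of 5098 genes higher and 2.61% lower), with Irf1 at 371 and 343 CPM, Gbp7 at 96.4 and 99.8, Gbp2 at 87.5 and 91.7 and Irgm1 at 46.0 and 83.6 (ratio 1.82, 1.07 to 3.09). In T cell-like cells 1 of 10 was higher and none lower (2.22% and 1.18% of 8614 genes), which was Iigp1 at 2.62 CPM (1 UMI) and 16.1 CPM (39 UMIs), tested through day 7 alone. Gbp4 (55.1 and 105 CPM, ratio 1.90, 1.22 to 3.12), Igtp (36.7 and 76.6, 2.09, 1.21 to 3.89) and Irgm1 (18.4 and 41.2) stayed under the limit. At day 14 none of 7 members passed it against day 3 in either direction (4.14% and 2.54% of 5945 genes). In NK cell-like cells 1 of 9 was higher at day 7 and none lower (3.03% and 2.75% of 6178 genes), which was Gbp3 at 29.6 and 71.4 CPM (2.41, 1.14 to 5.85). Both single calls were lost under several alternatives. The fibroblast marker list stood at 406 and 1106 CPM in T cell-like and at 326 and 1121 in NK cell-like cells on days 3 and 7, and its part was not tested. At day 14, 3 members could be compared in NK cell-like cells, and this was not counted.

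**Figure D4:**
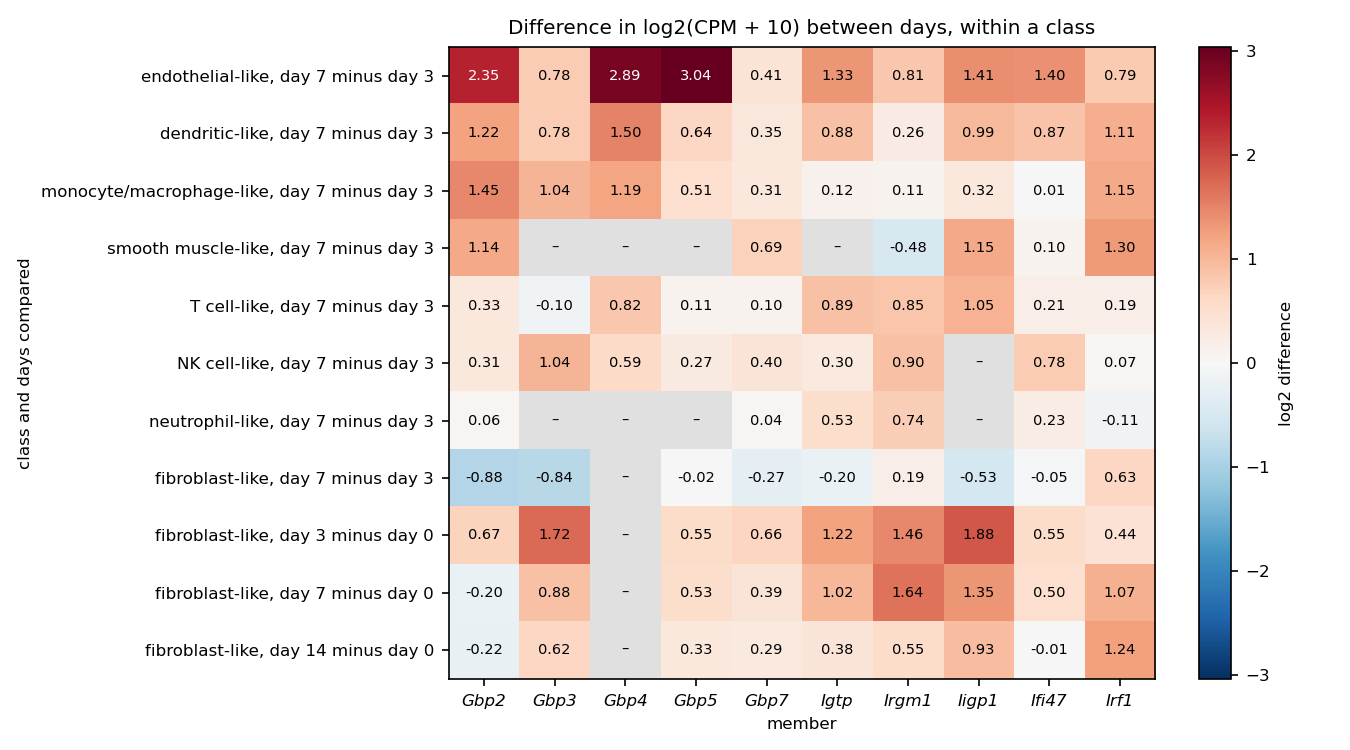
Difference in log2(CPM + 10) of each member between the days named, within a class (colour and number; grey fields with a dash had fewer than 20 UMIs over both days). Endothelial-like cells have the largest day 7 minus day 3 differences, up to 3.04 for Gbp5, which had 1 UMI at day 3 and was tested through day 7 alone, and fibroblast-like cells are the only class drawn in which most members lay lower at day 7 than at day 3.

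Cells with a UMI of any member were also counted at equal depth. After thinning each cell to 1000 UMIs (shares and their binomial intervals use the number of cells expected over all thinnings, and shallower cells were left out), 24.3%, 33.7% and 22.8% of monocyte/macrophage-like cells held one on days 3, 7 and 14 (509, 896 and 161 cells), with intervals of 20.6 to 28.2, 30.6 to 36.9 and 16.6 to 30.1. Without thinning the shares were 66.5%, 77.3% and 59.6%. Dendritic-like cells gave 21.9% (15.8 to 29.1), 34.3% (29.4 to 39.5) and 16.6% (6.11 to 33.3). In both classes day 7 was above day 3 without overlap. Fibroblast-like cells gave 11.4%, 24.9%, 21.8% and 18.7% on days 0, 3, 7 and 14, and the day 0 interval (7.42 to 16.4) lay below that of day 3 (18 to 33). Endothelial-like cells gave 22.5% at day 3 (8.18 to 44.0; 24 cells), 56.3% at day 7 (38.8 to 72.7; 36 cells) and 64.1% at day 14 (29.6 to 90.2; 10 cells), all overlapping, and day 14 was 49.1% (7 cells) without the shallower copies of shared barcodes. T cell-like cells gave 40.5%, 42.4% and 32.5% on days 3, 7 and 14, and the NK cell-like class gave 39.8%, 49.7% and 44.1%, each with overlapping intervals across the days. No class could be named that should lack all members. The lowest share was that of smooth muscle-like cells, at 6.51%, 10.5% and 7.08%.

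**Figure D5:**
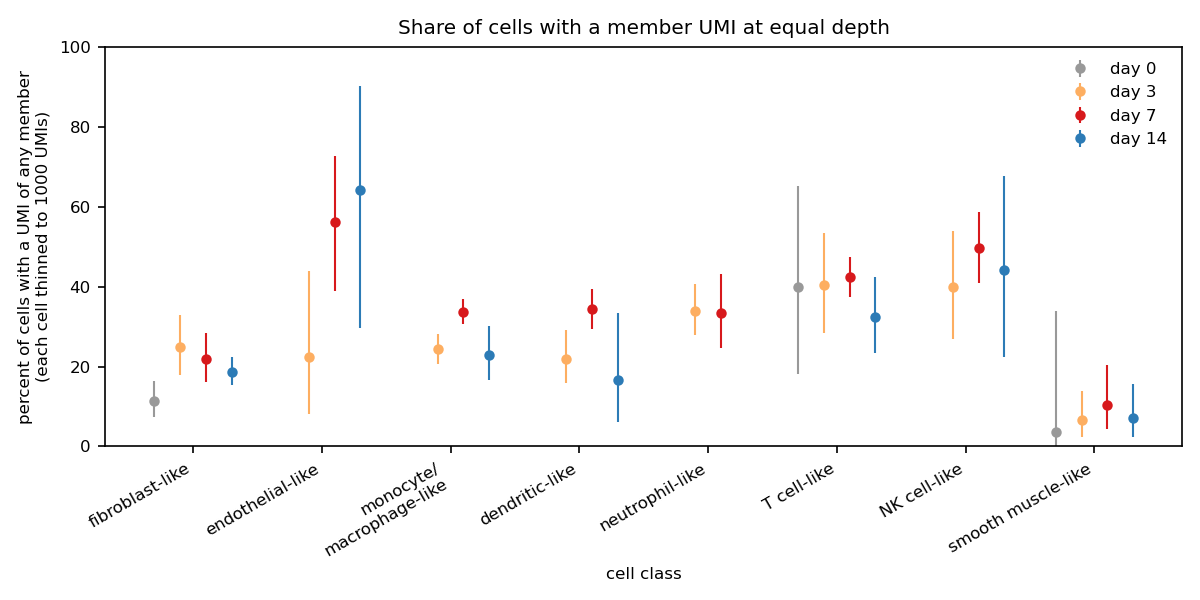
Percent of cells with a UMI of any of the 10 members after thinning to 1000 UMIs per cell, by class and day, with 95% exact binomial intervals. Monocyte/macrophage-like and dendritic-like cells peak at day 7 (33.7% and 34.3%), fibroblast-like cells lie at 11.4% at day 0 and 24.9% at day 3, and T cell-like cells lie between 32.5% and 42.4% on all days.

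The receptor and kinase genes were read in the same classes. Ifngr1, the ligand-binding chain, stood at 308, 328 and 271 CPM in monocyte/macrophage-like cells on days 3, 7 and 14, at 390.4, 409 and 258 in dendritic-like cells, and at 630.0, 1086 and 958 in NK cell-like cells. Ifngr2, the signalling chain, stood at 103, 127 and 121 CPM in the monocyte/macrophage-like class but at 3.71, 3.76 and 0 CPM in NK cell-like and 18.4, 8.64 and 16.4 in T cell-like cells, the classes that held Ifng. The NK cell-like values lay at or under the level of 3 UMIs, which was 11.1, 3.76 and 36.4 CPM there on days 3, 7 and 14. In fibroblast-like cells Ifngr1 fell from 165 CPM at day 0 to 62.6 at day 3 (ratio 0.380, 0.326 to 0.444) and stood at 80.4 and 111 later, while Ifngr2 stayed between 48.5 and 63.5. Of the kinases, Jak1 stood at 119, 129 and 146 CPM and Jak2 at 37.5, 48.8 and 33.0 in monocyte/macrophage-like cells. In endothelial-like cells Jak1 was past the limit, at 69.6 and 178 CPM on days 3 and 7 (2.55, 1.47 to 4.79).

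Socs1, a feedback inhibitor of the kinases, stood at 9.37, 23.2 and 11.5 CPM in monocyte/macrophage-like cells and did not pass the limit. The related inhibitor Socs3, which answers mainly to other cytokines, was past it at day 7 in monocyte/macrophage-like (169 and 384 CPM), dendritic-like (134 and 318) and endothelial-like cells (24.9 and 127).

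Other genes that interferon-γ induces were counted from lists. Of the 12 other interferon-inducible GTPases of the list that the matrices name, 6 could be compared between days 3 and 7 in endothelial-like cells, of which Irgm2 (24.9 and 62.8 CPM) was higher at day 7, where 11.1% of all genes were. The other 5 reached the minimum of UMIs through day 7 alone. Of these, Gbp9 stood at 9.95 CPM at day 3 (2 UMIs) and 135 at day 7, and Tgtp2, Gbp6, Gbp10 and Tgtp1 had no UMI at day 3, with Tgtp2 at 50.8 and Gbp6 at 49.4 CPM at day 7. In monocyte/macrophage-like cells 1 of 9 passed (Gbp8, 2.24 and 15.8 CPM; 1.20% of all genes higher) and in dendritic-like cells 2 of 7 (Tgtp2, 4.84 and 23.1 CPM, and Gbp8, 4.47 and 19.9; 0.997%). In fibroblast-like cells at day 3, 1 of 6 was above day 0 (F830016B08Rik, 1.33 and 21.5 CPM; 3.59%), with 3 UMIs at day 0 and tested through day 3 alone. No member of this list was lower by the limit in these comparisons. At day 14 against day 3, however, 2 of 7 were lower in monocyte/macrophage-like cells, among them Irgm2 (126 and 8 UMIs), and none was higher. Of all genes, 2.50% were as much lower and 2.35% as much higher.

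Of 19 other interferon-γ targets likewise listed, 3 of 17 were higher at day 7 than at day 3 in monocyte/macrophage-like cells (1.20% of all genes), 4 of 17 in dendritic-like (0.997%) and 5 of 10 in endothelial-like cells (11.1%), and none was lower in these classes. Smooth muscle-like cells had 2 of 8 higher and none lower (1.46% and 0.627% of all genes). Of 13 genes each, fibroblast-like cells had none higher and 1 lower (1.74% and 0.979%). T cell-like cells had 3 and 1 (2.22% and 1.18%) and NK cell-like cells 1 and 2 (3.03% and 2.75%). Neutrophil-like cells had none of 9 past the limit (3.79% and 2.61%). The most abundant genes of this list in the monocyte/macrophage-like class were the Fc receptor gene Fcgr1 (418 and 296 CPM), the immunoproteasome gene Psmb8 (262 and 310.4), the chemokine Cxcl10 (102 and 357, ratio 3.49, 3.18 to 3.85) and the transcription factor Irf8 (150.4 and 192), of which Cxcl10 passed. In endothelial-like cells the adhesion molecule Icam1 stood at 79.6 and 609 CPM (7.65, 4.66 to 13.5) and Cxcl10 at 14.9 and 549 (36.8, 12.5 to 179). Cxcl9, picked out after its values were seen, stood at 0.408, 117 and 3.37 CPM in monocyte/macrophage-like cells on days 3, 7 and 14 and at 1.12, 209 and 14.0 in dendritic-like cells, but at 0, 4.01 and 74.6 in endothelial-like cells. Cxcl9 in monocyte/macrophage-like and dendritic-like cells and Cxcl10 in endothelial-like cells had at most 3 UMIs at day 3. Their calls at day 7 were thus tested through day 7 alone. The other genes of this list were not searched for such calls, so its counts say nothing more than the values.

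Genes known mostly as type I interferon targets were counted in the same way. In fibroblast-like cells 12 of 16 were higher at day 3 than at day 0 and none lower (3.59% of all genes higher), 3 of 15 at day 7 (3.79%) and none of 15 at day 14 (2.38%). Isg15, a ubiquitin-like protein, stood at 41.8 CPM at day 0, 484 at day 3 (ratio 11.6, 9.41 to 14.4) and 137 at day 7, Ifit1 at 24.0, 113 and 64.3, and Ifit3 at 47.6, 122 and 33.0. In monocyte/macrophage-like cells none of 18 was higher or lower at day 7 against day 3 (1.20% and 0.80% of all genes), with Isg15 at 249 and 197 CPM, and 6 of 18 were lower at day 14 (2.50%). In dendritic-like cells 1 of 18 was higher at day 7 (0.997%) and 9 of 17 were lower at day 14 (4.30%). In endothelial-like cells 3 of 6 were higher at day 7 than at day 3 and none lower (median difference 1.09; 11.1% of all genes higher), and in T cell-like cells 5 of 15 and none lower (2.22%). Genes of this list that reached the minimum of UMIs through 1 day alone were not looked for, so its counts say nothing more than the values. Which interferon acted on the members or on this list was not tested.

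Across the 26 sums of a class and day with at least 20 cells, the members varied together to a degree that differed by pair. The pairwise Pearson correlation of log2(CPM + 10) had a median of 0.54 over 45 pairs and ran from −0.14, for Iigp1 and Irf1, to 0.80. The mean of the members correlated with Ifngr1 at 0.56, Isg15 at 0.56, Cxcl9 at 0.37, Ifit3 at 0.31, Ifng at 0.25, Socs1 at 0.21 and Ifngr2 at −0.15. The 10 genes of 9177 most like the members' mean were Tnip1 (0.82), Icam1 (0.81), Gbp9 (0.79), Arhgap31 (0.79), Adipor2 (0.78), Tmod3 (0.77), Sptlc2 (0.76), Golm1 (0.76), Myh9 (0.75) and Nras (0.75). The 26 points share 4 libraries and differ in depth, so these are descriptions only.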

How the data were processed

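Single-cell RNA was read from 4 libraries, 1 per day. The values in the matrices the authors deposited are unnormalized UMI counts for each gene in each barcode, made with Cell Ranger (3.0.2 in the file headers, another version in the methods). The reference is given there under the name of a human build although the genes are mouse genes, so no gene position was taken from the files. No per-sample column was left unused (0). The members and gene lists were chosen with earlier results of these data known.

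Scanpy 1.11.5 was used to drop barcodes under 200 genes or with a mitochondrial share above 20% (453) and the highest Scrublet scores (0.8% per 1000 barcodes, 106 barcodes, as the caller's own threshold marked 17). Counts were scaled to 10000 per cell, and Leiden clusters (leidenalg 0.10.2, resolution 1) came from 15 neighbours in 30 components of 2000 variable genes, the interferon lists left out. Clusters were named from at least 3 markers, and names were stricter for shallow clusters. The study's own annotation was not used, so differences from it may come from the rebuilt names. Cells of a class and day were summed to CPM, and comparisons needed 20 cells per day and 20 UMIs per gene. Named were all 10 members, Ifng, the receptor and kinase genes and Socs1 (1 further gene of the rule is not reported here), up to 4 genes with most UMIs of each other list, and the 10 genes with the most similar pattern (mean CPM of at least 10). Further genes named were chosen after their values were seen. Scripts were tested on simulated data. Alternatives covered the cell filter, doublets, clustering, weighting, pseudocount, UMI minimum, centring, thinning depth, and, added after seeing the data, the 5 deepest cells and shared barcodes.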

Additional observations from a re-analysis of the deposited data

How the results depend on the processing

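The signs of the values kept their direction under every alternative run wherever they had been called, and 1522 of 1606 values of single members kept their side of the limit of 2-fold, while 54 came to pass it and 30 no longer did. Of the values taken as main results, counted over the alternatives, 64 moved and 359 stayed the same. Removing the shallower copies of shared barcodes moved no count or level that answers a comparison. The share of endothelial-like cells with any member at day 14, thinned to 1000 UMIs, did move, from 64.1% to 49.1%, which put it below day 7 (56.3%). No paired analysis was possible because each day has 1 library. With 1 library per day and 20 to 60 cells in several classes, depth limits the endothelial-like, NK cell-like, B cell-like and day 14 dendritic-like values, among others.

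Counts of members past the limit moved as follows, and the cause was not tested. The share of all genes past the limit under each alternative is not given. These counts therefore show only how the calls moved, and not how the members stood against other genes. With the stricter cell filter, dendritic-like cells had 5 higher at day 7 and 2 lower at day 14, and NK cell-like cells 0 higher at day 7. Without doublet removal, fibroblast-like cells had 4 lower at day 14 against day 3, smooth muscle-like cells 5 higher at day 7, dendritic-like cells 2 lower at day 14, and T and NK cell-like cells 0 higher at day 7. With each library clustered on its own, the counts were 0 lower for fibroblast-like cells at day 14 against day 3, 2 higher for them at day 7 against day 0, 5 higher for dendritic-like cells at day 7, 0 higher for T and NK cell-like cells at day 7 and 1 lower for T cell-like cells at day 14. At resolution 0.5, and with interferon genes among the variable genes, T and NK cell-like cells had 0 higher at day 7, and in the latter case dendritic-like cells had 0 lower at day 14. With cells weighted equally (CPM per cell, then averaged), fibroblast-like cells had 2 higher at day 7 against day 3, 0 lower at day 14 against day 3 and 3 higher at day 14 against day 0, smooth muscle-like cells 1 higher and 1 lower at day 7 and 1 lower at day 14, monocyte/macrophage-like cells 0 higher and 1 lower at day 14, dendritic-like cells 5 higher and NK cell-like cells 0 higher at day 7. With a pseudocount of 1 CPM, fibroblast-like cells had 2 lower at day 7 and 5 lower at day 14 against day 3 and 3 higher at day 14 against day 0, dendritic-like cells 6 higher at day 7 and 2 lower at day 14, T cell-like cells 3 higher and NK cell-like cells 2 higher at day 7. With no minimum of UMIs, 1 member was higher in dendritic-like cells at day 14. Centred on the median of all genes, 2 were lower in fibroblast-like cells at day 14 against day 3. Without the 5 deepest cells, 2 were lower in fibroblast-like cells at day 14 against day 3, 1 lower in smooth muscle-like cells at day 14, 5 higher at day 7 and 2 lower at day 14 in dendritic-like cells, and 2 higher in T cell-like cells at day 7.

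The Ifng level by day was 28.9, 45.8 and 34.9 CPM on days 3, 7 and 14 as a mean over cells, in place of 14.0, 27.1 and 10.9. The share of cells with a UMI of any member depends on depth by construction. Thinned to 2000 UMIs it was 39.3%, 48.1% and 39.1% in monocyte/macrophage-like cells on days 3, 7 and 14, 35.1% and 49.1% in dendritic-like cells on days 3 and 7, and 19.7%, 38.1%, 36.4% and 31.3% in fibroblast-like cells on days 0, 3, 7 and 14. Without thinning the same shares were 66.5%, 77.3% and 59.6%, 78.3% and 85.9%, and 46.7%, 49.3%, 79.2% and 79.8%, so that the order of fibroblast-like days 3, 7 and 14 was the opposite of that at equal depth.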
